A study of Mus musculus with 12 samples.

Results

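Lysosomal proteases of bone marrow M-MDSCs were compared between young and aged mice over 10 genes, namely the cathepsin genes Ctsa, Ctsb, Ctsc, Ctsd, Ctsh, Ctsk, Ctsl, Ctss and Ctsz and the legumain gene Lgmn. They were chosen by name, and all 10 were found among the 23420 genes of the count table. Monocytic myeloid-derived suppressor cells (M-MDSCs, sorted as CD11b+Ly6G-Ly6Chi) came from male C57BL/6JNIA mice, an inbred strain from an aging colony, of 6 months (young, n = 6) or 24 months (aged, n = 6). No mouse carried a transgene or received a treatment according to the labels, and each library held the RNA of 1 mouse. The labels give the tibia as the source. The question was how the RNA of each protease differed between the ages.

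Cathepsins are made as inactive precursors, carried to endosomes and lysosomes by mannose 6-phosphate receptors, and activated there at acidic pH. They digest engulfed and worn-out proteins, trim antigens for MHC class II, and in some cells are secreted. In the bone marrow they serve macrophages that clear dying cells, granulocytes that fill their granules, and osteoclasts, which secrete cathepsin K onto bone. Cystatins and stefins are natural inhibitors of the cysteine cathepsins, and some cystatins also inhibit legumain.

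Library totals were 4613239 to 9079237 fragments in young and 8737941 to 16300374 in aged mice. A level is given in CPM, a gene's count scaled to the size of its library, and a difference as a log2 fold change of aged over young mice with its standard error (SE). Of all 9742 genes that passed the filter on low counts, 22.4% were called higher and 23.0% lower in aged mice by edgeR's quasi-likelihood test at an adjusted p under 0.05. The sort label was compared with RNA of cell type markers, which include Ly6c2 but not the genes of CD11b or Ly6G. The 7 classical monocyte genes examined, Ly6c2 and Ccr2 among them, summed to 523 to 1046 CPM per kilobase of exon over the 12 mice, whereas 9 neutrophil genes, S100a8 and Ngp among them, summed to 85954 to 217760 CPM per kilobase. By these lists the libraries held far more neutrophil than monocyte marker RNA, although the label is a Ly6G-negative monocytic sort. RNA of Ly6G itself was not examined, and the name M-MDSC is kept only as the label. Aged replicates 1 and 2 stood apart in genes of resident macrophages, and young replicates 5 and 6 had the lowest neutrophil sums, 77996 and 78643 CPM against 104018 to 121388 CPM in the other young mice. In sorted bulk RNA, a change in the number of cells of a type and a change of RNA per cell cannot be told apart.

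Nearly the whole group was higher with age. Of the 9 members that passed the filter, 8 were called higher in aged mice (Ctsa, Ctsb, Ctsc, Ctsd, Ctsh, Ctss, Ctsz and Lgmn), none was called lower, and Ctsl was not called. Over all genes tested, 22.4% were called higher and 23.0% lower. No member had a log2 fold change under 0, so the count of lower genes was also 0 at an unadjusted p under 0.05, and it was 0 with DESeq2 and limma-voom. Ctsk was under the filter. The log2 fold changes spanned 0.21 for Ctsh to 2.54 for Lgmn with a median of 0.61, and the median of all genes tested was 0.01. Over all genes tested the log2 fold change fell with gene length (Spearman's rho = -0.48 across genes, which are not replicates), and the tested members were shorter, with a median of 1954 bases of exon against 2890. With a correction for gene length 5 of the 9 members were called higher, where 17.4% of all genes tested were. The summed level of the 10 genes was 1093 to 1480 CPM in young and 1596 to 2361 CPM in aged mice, without overlap. Single genes overlapped more: Ctsa alone had all 6 aged mice above all 6 young mice, 1 of 9 members, where 9.68% of all genes tested showed such a separation toward higher levels. Leaving out each mouse in turn, 6 of the 9 members (Ctsa, Ctsb, Ctsc, Ctsd, Ctss and Lgmn) were called higher in all 12 fits, where 17.7% of all genes tested were. Of these, Ctsa, Ctsc and Ctsd were also called in every other fit that was run.

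**Figure D1:**
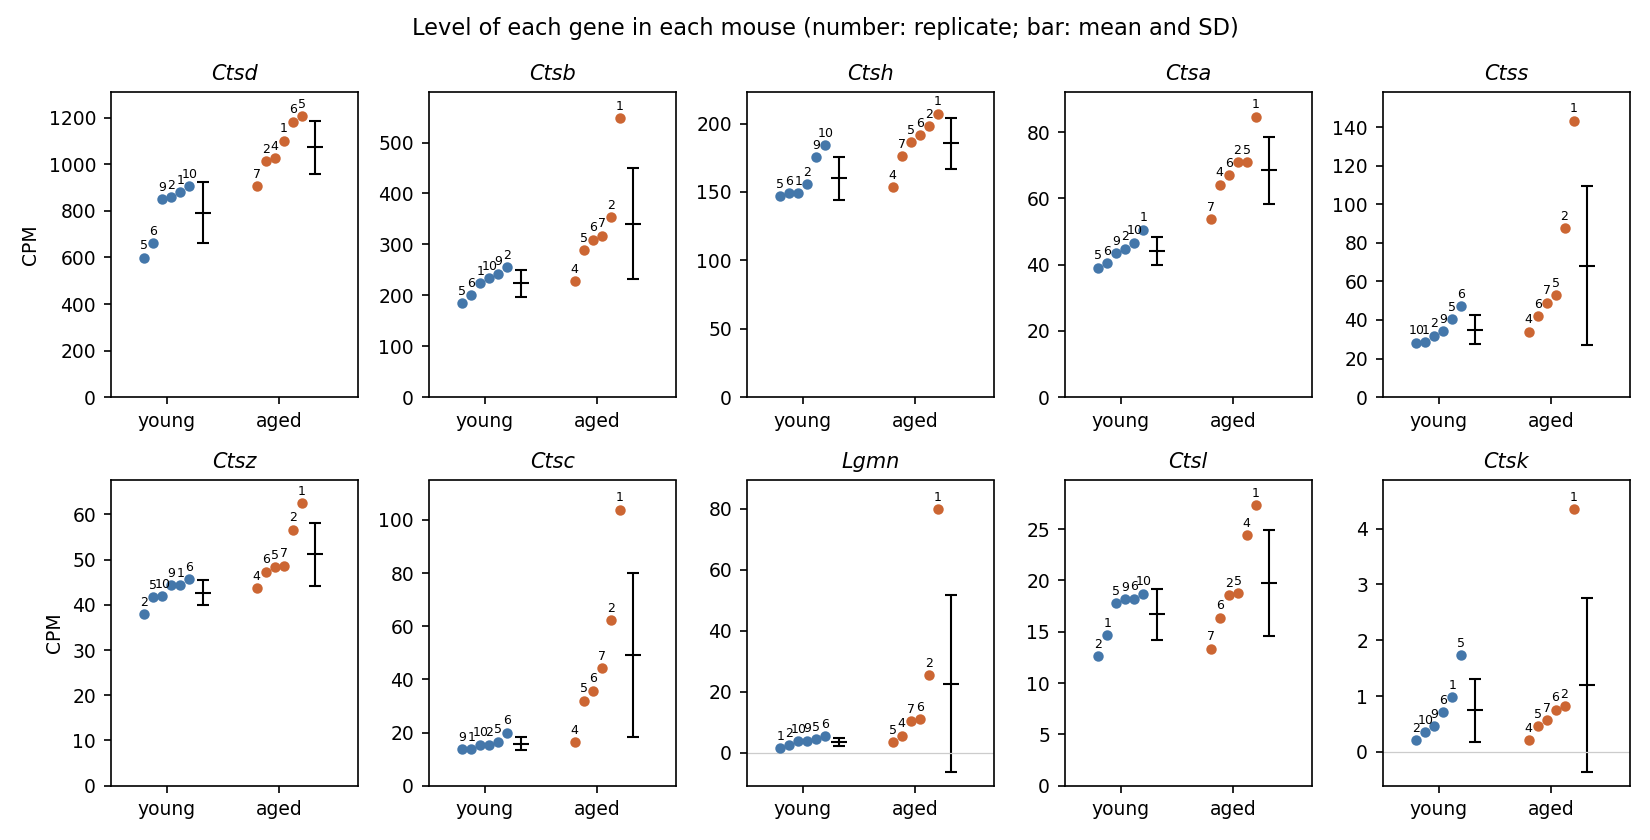
Level of each of the 10 genes in CPM (linear axes) in 6 young and 6 aged mice, with the replicate number above each point and the mean and SD beside each group. Aged replicate 1 is the highest point for 9 of the 10 genes, the exception being Ctsd, and Ctsa is the gene whose groups do not overlap.

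Cathepsin D (Ctsd, chr7:142375916-142387870 on mm10, minus strand, 9 exons), the main aspartic protease of the lysosome, had the highest level per kilobase of exon of the 10 genes in both ages. Its level was 599, 855 and 907 CPM (lowest, median, highest) in young mice and 906, 1064 and 1206 CPM in aged mice. Of the 6 aged mice, 5 lay above every young mouse, and aged replicate 7 lay just under the highest young one. The mean rose from 793 ± 129 to 1072 ± 114 CPM (SD, n = 6), a log2 fold change of 0.44 (SE 0.109, adjusted p = 0.00485). The young mice fell into 4 close values of 851 to 907 CPM and the 2 low values of replicates 5 and 6, 599 and 661 CPM. Without those 2 mice the log2 fold change was 0.27 (SE 0.0778, adjusted p = 0.0157). The neutrophil sum was low in the same 2 mice, as given above, and its part in the result was not tested.

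Cathepsin A (Ctsa, chr2:164832872-164841032, plus strand, 16 exons) is a serine carboxypeptidase that also shields beta-galactosidase and neuraminidase 1 from breakdown. It was at 39.1, 44.1 and 50.6 CPM in young mice and at 53.7, 68.9 and 84.6 CPM in aged mice. Every aged mouse was above every young one, with aged replicate 7 the lowest and aged replicate 1 the highest of the aged group. The log2 fold change was 0.63 (SE 0.0995, adjusted p = 2.35e-04), a 1.55-fold difference, and it stayed between 0.54 and 0.74 in every alternative. The gene overlaps Neurl2 and Pltp on the other strand, and both were under the filter in these strand-specific counts. Of the partners of cathepsin A, Glb1 (beta-galactosidase) was higher by 0.43 (SE 0.159, adjusted p = 0.0382), while Neu1 was at -0.08 (SE 0.0634, adjusted p = 0.310) and Galns at -0.03 (SE 0.0567, adjusted p = 0.665), neither of them called. The call of Glb1 was lost in 9 of the 12 fits that left out 1 mouse.

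Ctsa and Ctsd were also the members whose promoters held the 8 letters TCACGTGA, which read the same on both strands and contain the E-box CACGTG, the core of the element that TFEB and TFE3 bind in lysosomal genes. The 30 bases around each match are shown because this feature was shared by the pair and was rare, with the match in capitals. RefSeq promoters (GRCm38.p6, 250 bases before a start) were matched for 8 of the 10 members, all but Ctsb and Ctsh. For Ctsa the start used lies 901 bases downstream of the gene's first deposited base (chr2:164833749-164833778, plus strand), and for Ctsd it lies 43 bases from it (chr7:142387908-142387937, minus strand). Both windows overlapped annotated exons of the same gene. Their longest exon-free stretch ran from 250 to 165 bases before the start for Ctsa and from 250 to 212 for Ctsd. Both matches lay outside it, 13 to 6 and 99 to 92 bases before the start.
Ctsa: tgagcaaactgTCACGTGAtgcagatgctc
Ctsd: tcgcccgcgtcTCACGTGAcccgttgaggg
TCACGTGA was present in 0.785% of the 32851 mouse promoter windows of this length, and CACGTG, on either strand, in 6.02%. CACGTG occurred a second time in the Ctsd window and once each in the windows of Ctsl and of an inner start of Lgmn, and not in the other windows, which include the first start of Ctsa. A match describes the letters only. Only the RNA of the factors was measured, not their activity, and none was called. Tfeb was at 0.18 (SE 0.0752, adjusted p = 0.0634), Tfe3 at -0.14 (SE 0.0611, adjusted p = 0.0646), Tfec at 0.23 (SE 0.393, adjusted p = 0.656) and Mitf at -0.33 (SE 0.162, adjusted p = 0.110). Of these 4 genes edgeR called 0, with 1 higher and 1 lower at an unadjusted p under 0.05, and DESeq2 and limma-voom also called 0. Of the 12 fits without 1 mouse, 3 called 1 of the 4 higher and 1 called 1 lower, and of the 11 other alternatives 4 called 1 higher and 1 called 1 lower.

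Cathepsin B (Ctsb, chr14:63122462-63145923, plus strand, 10 exons), a cysteine protease that cuts both within proteins and at their ends, was at 185, 229 and 255 CPM in young mice and at 228, 313 and 547 CPM in aged mice. Aged replicate 1 had 547 CPM, the next aged mouse 353 CPM, and aged replicate 4 lay within the young range. The log2 fold change was 0.61 (SE 0.162, adjusted p = 0.00700), and it was 0.42 without aged replicate 1 and 0.37 without aged replicates 1 and 2, still called in both. Without young replicates 5 and 6, the lowest young mice for Ctsb, it was 0.50 and was not called (adjusted p = 0.0530).

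The largest difference belonged to legumain (Lgmn, chr12:102394098-102439697, minus strand, 14 exons), an endopeptidase that cuts after asparagine and processes several cathepsins to their mature forms. It was at 1.56, 3.92 and 5.40 CPM in young mice and at 3.51, 10.6 and 79.8 CPM in aged mice. Above all young mice were 5 of 6 aged mice, aged replicate 5 was within the young range, and aged replicates 1 and 2 had 79.8 and 25.4 CPM. The log2 fold change was 2.54 (SE 0.668, adjusted p = 0.00654), a 5.83-fold difference of the fitted means. It was 1.54 without aged replicate 1 (adjusted p = 0.0100) and 1.02 without aged replicates 1 and 2 (adjusted p = 0.0279), and limma-voom gave 1.72 with an adjusted p of 0.0894. The direction thus held without the 2 mice, and the size of the difference did not.

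Cathepsin C (Ctsc, chr7:88278093-88310875, plus strand, 7 exons) removes dipeptides and so activates the serine proteases of granules. It was at 13.6, 15.4 and 19.96 CPM in young mice and at 16.4, 39.9 and 104 CPM in aged mice. Aged replicate 4, at 16.4 CPM, was the single aged mouse within the young range, and the other 5 began at 31.98 CPM. Aged mice were higher by 1.62 on the log2 scale (SE 0.328, adjusted p = 0.00126). It was 1.26 without aged replicate 1 and 1.03 without aged replicates 1 and 2 (adjusted p = 0.00353). Of the granule proteases that cathepsin C activates, Prtn3 (proteinase 3) was higher by 1.54 (SE 0.213, adjusted p = 9.54e-05) and Elane (neutrophil elastase) by 1.25 (SE 0.347, adjusted p = 0.00897). Both were low, at 1.60 and 1.34 CPM on average in young mice, and Ctsg and the granzymes were under the filter. With the filter set at 10 counts or more in every mouse none of this list was called, since both genes had fewer in at least 1 young mouse. Of 6 tested markers of promyelocytes and progenitors, a list that holds both genes, 4 were called higher, where 22.4% of all genes tested were. The other 2 called were Mpo at 0.99 (adjusted p = 0.00411) and Ms4a3 at 0.44 (adjusted p = 0.00851), while Cebpe at 0.04 and Kit at 0.06 were not called, and the part of these cells in the result was not tested.

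Cathepsin S (Ctss, chr3:95526786-95556403, plus strand, 8 exons) degrades the invariant chain in cells that present antigen on MHC class II. It was at 28.2, 33.1 and 47.1 CPM in young mice and at 34.0, 50.9 and 143 CPM in aged mice. Aged replicates 1 and 2 had 143 and 87.6 CPM, and 2 of the other 4 aged mice lay within the young range. Aged mice were higher by 0.95 on the log2 scale (SE 0.294, adjusted p = 0.0167). Without aged replicates 1 and 2 it was 0.35 and was not called (adjusted p = 0.104), nor was it with a correction for gene length, at 0.70 (adjusted p = 0.0618). Young replicates 5 and 6, the lowest young mice for Ctsd, were the highest for Ctss at 40.5 and 47.1 CPM. The monocyte markers Ccr2, F13a1, Cx3cr1, Fcgr1 and Ms4a4c were also highest among young mice in these 2, Ccr2 at 54.7 CPM in both, and lowest of all 12 mice in aged replicate 4 (Ccr2 at 5.03 CPM), which had the lowest aged level of Ctss and of Ctsc. Ly6c2 and Csf1r, of the same list, were lowest among young mice in young replicates 5 and 6. With age Ly6c2 was higher by 0.54 (SE 0.122, adjusted p = 0.00265) without overlap, and the other 6 of the 7 monocyte markers were not called. The list summed to 604 to 796 CPM in young and 755 to 988 CPM in aged mice. The part of monocyte RNA in these levels was not tested.

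The Ctss promoter is shown because it was the only member window with GAAANNGAAA, the core letters of an interferon-stimulated response element, where N is any base. The 250 bases before the RefSeq start (chr3:95526536-95526785, plus strand, GRCm38.p6) follow with the match in capitals, 21 to 12 bases before the start.
Ctss: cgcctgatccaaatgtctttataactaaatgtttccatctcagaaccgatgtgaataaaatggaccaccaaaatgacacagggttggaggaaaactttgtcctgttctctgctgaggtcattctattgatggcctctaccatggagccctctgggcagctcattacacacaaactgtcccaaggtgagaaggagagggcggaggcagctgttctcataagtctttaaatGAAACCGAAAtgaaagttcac
The motif, searched on both strands, was present in 2.98% of all such windows.

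Genes of antigen presentation and endosomal receptors, which cathepsin S and legumain serve, were examined beside them. Of 11 tested MHC class II genes and endosomal Toll-like receptors, 6 were called higher and 1 lower, where 22.4% and 23.0% of all genes tested were. H2-Eb1, an MHC class II beta chain, was higher by 2.39 (SE 0.580, adjusted p = 0.00409) and Cd74, the invariant chain, by 2.15 (SE 0.581, adjusted p = 0.00777). Unc93b1, which delivers Toll-like receptors to endosomes, was higher by 0.27 (SE 0.0602, adjusted p = 0.00229) and its aged and young mice did not overlap. Tlr8 was lower, at -0.31 (SE 0.0948, adjusted p = 0.0155). H2-DMb1 at 0.91, Tlr13 at 0.31, Tlr9 at 0.17 and Tlr7 at 0.02 were not called. Cd74 was at 662 and 210 CPM in aged replicates 1 and 2 and at 36.3 CPM in aged replicate 5, where young mice had 35.7 to 54.6 CPM. The summed macrophage markers other than Slc40a1, described further on, were highest in the same 2 aged mice. Markers of B and plasma cells, which also carry MHC class II, summed to 21.6 and 11.1 CPM in these 2 mice and to 2.36 to 5.87 CPM in the other 10. The part of either cell type in these differences was not tested. With limma-voom 1 of the 11 genes was called higher, where 21.6% of all genes tested were.

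Ctsh and Ctsz had the smallest differences among the 8 called members. Cathepsin H (Ctsh, chr9:90054267-90076095, plus strand, 12 exons), chiefly an aminopeptidase, was at 147, 152 and 184 CPM in young and at 154, 189 and 207 CPM in aged mice. Cathepsin Z (Ctsz, chr2:174427494-174438992, minus strand, 6 exons), a carboxypeptidase, was at 37.9, 43.1 and 45.7 CPM in young and at 43.7, 48.5 and 62.4 CPM in aged mice. Above every young mouse were 4 of 6 aged mice for Ctsh and 5 of 6 for Ctsz. The log2 fold change was 0.21 for Ctsh (SE 0.0820, adjusted p = 0.0460) and 0.26 for Ctsz (SE 0.0888, adjusted p = 0.0263). The call of Ctsh was lost in 8 of 12 fits that left out 1 mouse, and that of Ctsz in 3 of 12. With a correction for gene length both fell to 0.04.

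Cathepsin L (Ctsl, chr13:64363214-64370306, minus strand, 8 exons), an endopeptidase of lysosomes, was not called. It was at 12.6, 17.97 and 18.7 CPM in young mice and at 13.3, 18.6 and 27.3 CPM in aged mice. The groups overlapped. Above every young mouse were 3 of 6 aged mice, replicates 1 and 4 at 27.3 and 24.4 CPM and replicate 5 by a small margin. The log2 fold change of 0.22 (SE 0.1601, adjusted p = 0.267) was within the spread between mice.

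Cathepsin K (Ctsk, chr3:95499286-95509362, plus strand, 8 exons), the collagen-degrading protease of osteoclasts, lies 17424 bases from Ctss on the same strand and was barely detected. Young mice had 1 to 16 counts each and aged mice 2 to 39. That is 0.214, 0.588 and 1.74 CPM in young and 0.214, 0.661 and 4.35 CPM in aged mice (lowest, median, highest). Aged replicate 1 held the 39 counts, and the other 5 aged mice averaged 0.563 ± 0.242 CPM against 0.743 ± 0.557 in young mice. The difference in mean CPM over all mice was 0.451 (two-sided exact permutation test, p = 0.714), and DESeq2, which kept the gene, gave 0.64 (SE 0.685, adjusted p = 0.496). No difference of Ctsk was detectable at this depth. Of the osteoclast genes examined, Acp5 was higher by 1.995 (SE 0.589, adjusted p = 0.0126), and Mmp9 at 0.25, Nfatc1 at -0.14 and Itgb3 at 0.04 were not called. Acp5 was low, at 0.592, 1.01 and 1.41 CPM in young and 0.739, 2.56 and 10.5 CPM in aged mice, and the groups overlapped. Tnfrsf11a (RANK) and Atp6v0d2 were under the filter. Tnfrsf11a had 0 to 1.41 CPM in young and 0.535 to 3.79 CPM in aged mice. Atp6v0d2 had 0.586 to 1.42 CPM in young and 0.251 to 2.68 CPM in aged mice. Calcr was at 0 counts in every mouse, and Dcstamp, Ocstamp and Oscar did not exceed 0.223 CPM in any.

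**Figure D2:**
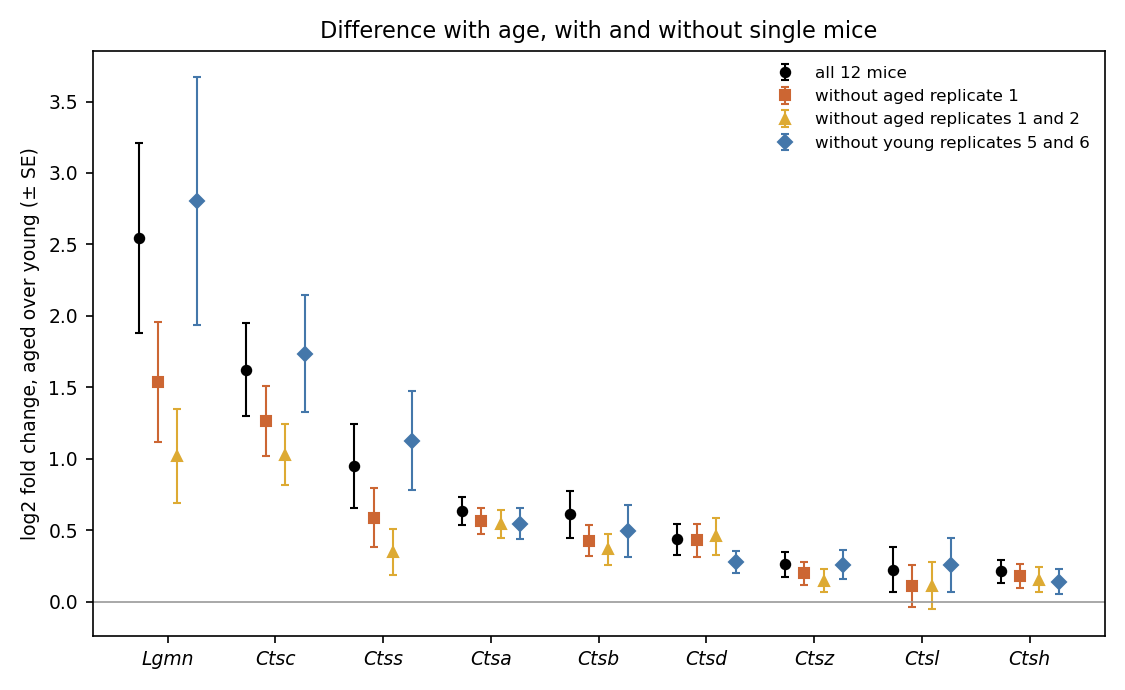
Log2 fold change of aged over young mice (± SE, edgeR) for the 9 tested genes with all 12 mice, without aged replicate 1, without aged replicates 1 and 2, and without young replicates 5 and 6. Lgmn goes from 2.54 to 1.02 and Ctss from 0.95 to 0.35 without aged replicates 1 and 2, whereas Ctsa keeps to 0.54 or more in these 4 fits.

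Levels of different genes were compared per kilobase of exon. In young mice the order was Ctsd (406 ± 66.0 CPM per kilobase, SD), Ctsh (98.6 ± 9.72), Ctsb (47.1 ± 5.57), Ctsz (30.6 ± 1.999), Ctss (25.8 ± 5.45), Ctsa (12.2 ± 1.15), Ctsl (8.47 ± 1.25), Ctsc (6.38 ± 0.948), Lgmn (1.94 ± 0.730) and Ctsk (0.501 ± 0.376). Among the genes tested, Ctsd ranked 96th and Lgmn 7899th by this level. Ranges of neighbours overlapped for Ctsz with Ctss, for Ctsl with Ctsc and for Lgmn with Ctsk, and not for the other neighbours in the young order. In aged mice Ctss (50.2 ± 30.3 CPM per kilobase) came before Ctsz (36.7 ± 4.99), Ctsc (19.8 ± 12.5) came before Ctsa (18.9 ± 2.79), and Ctsc and Lgmn (12.1 ± 15.5) came before Ctsl (10.04 ± 2.62). Those aged ranges overlapped. Within single mice, Ctsl was above Ctsc in every young mouse, and Ctsc was above Ctsl in every aged mouse but replicate 4. Ctss was above Ctsz in young replicate 6 alone and in aged replicates 1, 2, 5 and 7. Ctsc was above Ctsa in aged replicates 1, 2 and 7, and Lgmn above Ctsl in aged replicates 1 and 2, and neither in any young mouse. The order was not tested.

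The spread itself differed between the ages. The coefficient of variation of Lgmn over mice was 37.6% in young and 128% in aged mice, that of Ctsc 14.8% and 62.7%, and that of Ctss 21.1% and 60.4%. Ctsd, by contrast, varied by 16.3% in young and 10.6% in aged mice, and Ctsh by 9.86% and 10.2%. The difference in spread was not tested.

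Some members varied together across mice. Likeness was measured as Pearson's r of log2 CPM over 12 mice after the mean of each age was subtracted, as a description, since all values come from the same libraries. Within Ctsb, Ctsc, Ctss, Ctsz and Lgmn, a set formed after the values were seen, the 10 pairs had r of 0.71 to 0.92, the highest for Ctsc with Ctss. Without aged replicate 1 the 10 pairs had r of 0.29 to 0.83. Ctsd stood outside, at r = -0.25 with both Ctss and Lgmn, and was most like Ctsa (r = 0.67, and 0.79 without aged replicate 1). Ctsl was not above 0.45 with any member.

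**Figure D3:**
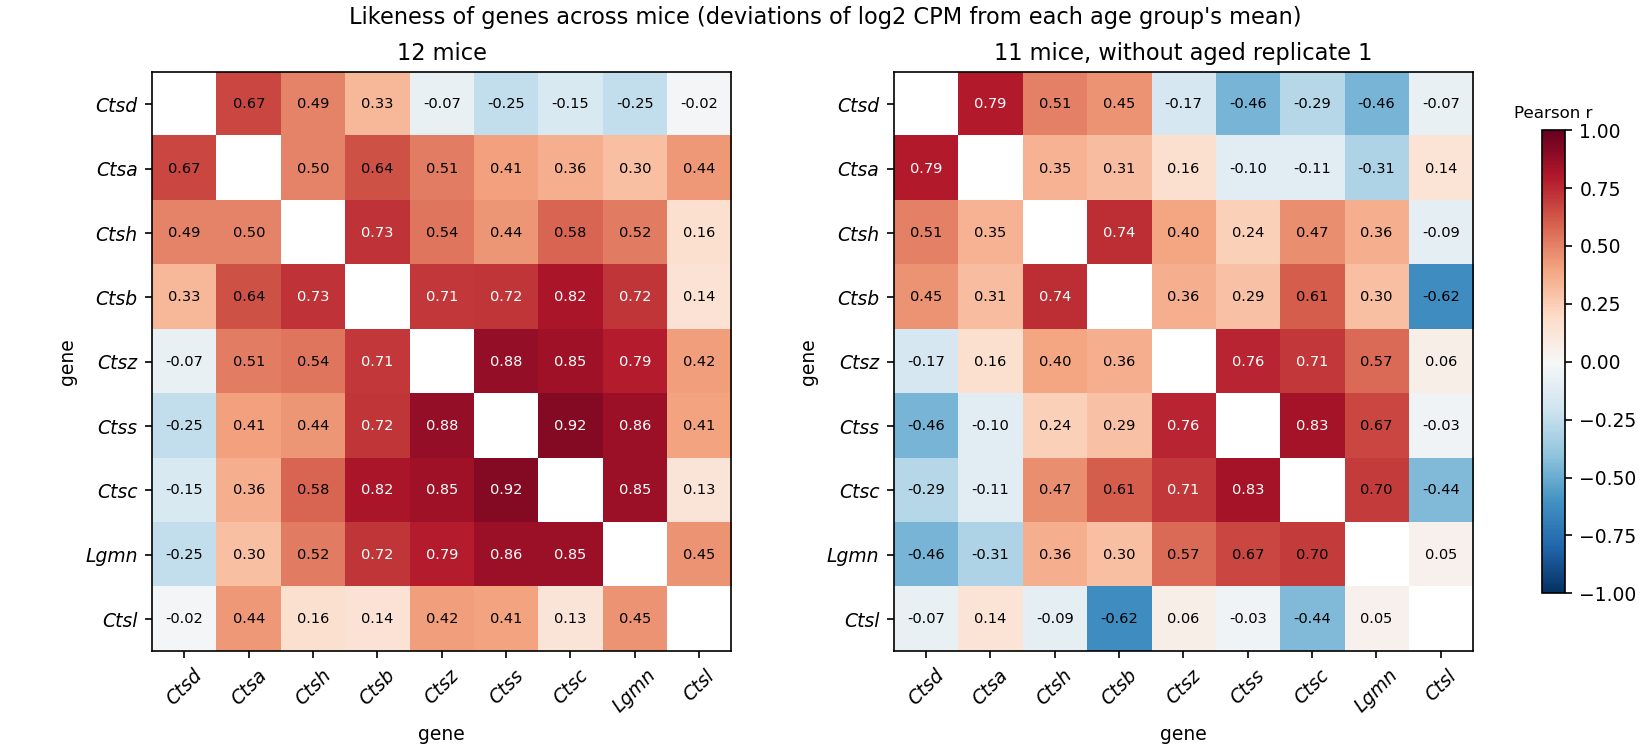
Pearson's r between the 9 tested genes over 12 mice (left) and over 11 mice without aged replicate 1 (right), computed on log2 CPM with the mean of each age removed. Ctsz, Ctss, Ctsc and Lgmn form a block of r from 0.79 to 0.92 on the left that falls to 0.57 to 0.83 on the right, and Ctsd with Ctsa has 0.67 and 0.79.

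Beyond the members, the 2 tested genes most alike to each were named by the same measure. Ctsd was followed by Klhl9 (r = 0.99) and Tmed7 (r = 0.98), and Ctsa by Npc2, a lysosomal cholesterol carrier (r = 0.94), and Csf1r, the M-CSF receptor (r = 0.93). Ctsb was followed by M6pr, the cation-dependent mannose 6-phosphate receptor (r = 0.97), and Pla2g15, a lysosomal phospholipase (r = 0.95). For Ctsc they were Pid1 and Fcgr1 (both r = 0.96), and for Ctss Pgap1 (r = 0.95) and Scpep1 (r = 0.92). For Ctsz they were Abi3 (r = 0.94) and Tifa (r = 0.92), and for Lgmn Ly9 and Hpgd (both r = 0.96). Ctsh was followed by Hn1 (r = 0.94) and 2310005G13Rik (r = 0.92), and Ctsl by Tmem206 and 9330020H09Rik (both r = 0.87). These are the highest values over all genes tested, from the same 12 libraries.

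Genes of resident macrophages moved with several members. All 11 tested macrophage markers were called higher in aged mice, where 22.4% of all genes tested were. They were C1qa at 3.13, C1qb at 3.03, C1qc at 3.32, Mertk at 2.72, Vcam1 at 1.996, Cd5l at 2.95, Siglec1 at 1.79, Cd163 at 2.47, Axl at 2.41, Mrc1 at 2.51 and Slc40a1 at 0.31. Of these, 3 did not overlap between the ages. Cd163 had 0.642, 2.19 and 41.6 CPM in aged mice (lowest, median, highest), and its aged median lay within the young range of 0.977 to 2.37 CPM. The summed level of the list was 405 to 561 CPM in young and 608 to 1792 CPM in aged mice. Slc40a1, the iron exporter, was at 343 to 505 CPM in young mice, and the other 12 genes summed to 55.1 to 72.8 CPM in young mice and to 1183, 359, 125, 63.0, 191 and 197 CPM in aged replicates 1, 2, 4, 5, 6 and 7. Stromal and endothelial markers summed to 10.9 to 21.9 CPM in young mice and to 112, 45.7, 41.1, 36.7, 52.4 and 18.9 CPM in the same order of aged mice, and their part was not tested either. Of 3 tested, Cxcl12 was higher by 2.35 and Pecam1 by 1.07, and Col1a1 at -0.26 was not called. Of the macrophage list, Spic and Timd4 were under the filter, and Timd4 had a median of 0 CPM in young mice. Aged replicate 5, whose sum of 63.0 CPM lay within the young range, had 3.51 CPM of Lgmn, also within the young range, while its 31.98 CPM of Ctsc, 289 CPM of Ctsb and 1206 CPM of Ctsd lay above every young mouse.

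**Figure D4:**
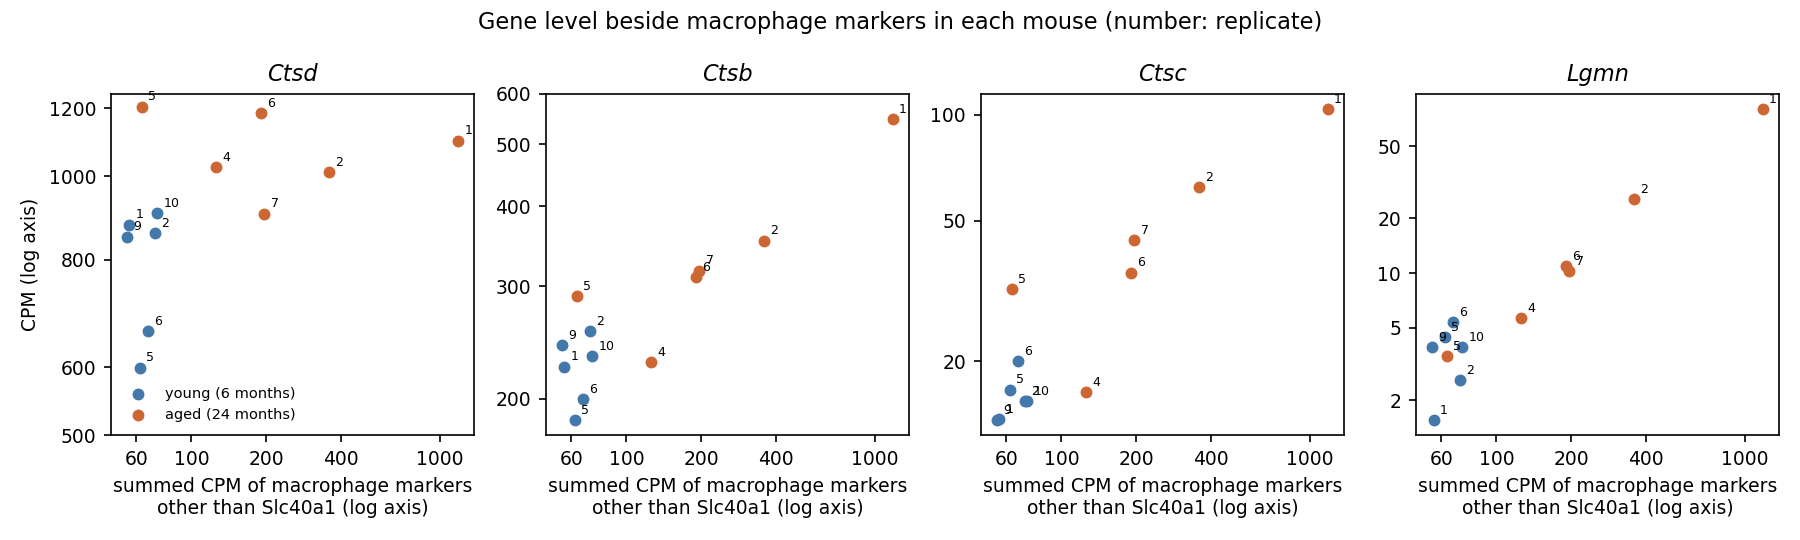
Level of Ctsd, Ctsb, Ctsc and Lgmn (CPM, log axes) against the summed CPM of 12 macrophage markers other than Slc40a1 (log axis) in each of 6 young and 6 aged mice, with replicate numbers. Aged replicates 1 and 2, with marker sums of 1183 and 359 CPM, have the highest Ctsb, Ctsc and Lgmn, while Ctsd is highest in aged replicate 5, whose sum is 63.0 CPM.

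Over the 12 mice, with the age means removed, the 10 tested markers other than Slc40a1 had r of 0.78 to 0.94 with Lgmn, 0.68 to 0.87 with Ctsc, 0.61 to 0.84 with Ctsb, 0.61 to 0.82 with Ctss and 0.59 to 0.77 with Ctsz. With Ctsa they had 0.24 to 0.72 and with Ctsd -0.22 to 0.19. Ctsh had 0.25 to 0.60 and Ctsl 0.13 to 0.56. Without aged replicate 1 the median over these markers was 0.72 for Lgmn, 0.53 for Ctsc, 0.43 for Ctsb, 0.39 for Ctss, 0.37 for Ctsz, 0.28 for Ctsh, -0.01 for Ctsa, -0.18 for Ctsl and -0.21 for Ctsd. Slc40a1 showed the other pattern, with r = 0.90 for Ctsd and 0.81 for Ctsa and -0.06 for Lgmn. The part of macrophage RNA in the difference of any member was not tested. Without the 2 mice highest in these markers, the difference was 1.02 for Lgmn, 1.03 for Ctsc, 0.37 for Ctsb and 0.35 for Ctss. It was 0.54 for Ctsa and 0.46 for Ctsd, next to 0.63 and 0.44 with them. The calls of Ctss, Ctsh and Ctsz were lost in that fit. Aged replicates 4, 6 and 7, which it kept, still had marker sums above every young mouse.

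Inhibitors of the cysteine cathepsins were higher in aged mice. All 8 that passed the filter, of 17 cystatins and stefins in the table, were called higher, with a median log2 fold change of 1.19. The share called higher over all genes tested was 22.4%. Cst3 (cystatin C), the secreted inhibitor, was higher by 0.61 (SE 0.151, adjusted p = 0.00436) and Cstb (stefin B), the intracellular one, by 0.90 (SE 0.167, adjusted p = 7.29e-04). Stfa2, of the stefin A cluster, was higher by 2.04 (SE 0.353, adjusted p = 4.66e-04), from 11.7 ± 5.02 CPM in young to 47.0 ± 24.2 CPM in aged mice. The stefin A copies resemble each other, and the mapping quality filter of the deposited counts leaves the split of reads between them uncertain. Summed, the inhibitor genes were lowest in young replicates 5 and 6, at 240.0 and 211 CPM, where the other young mice had 401 to 476 CPM and the aged mice 489 to 958 CPM. Neutrophil markers moved with age as well: 5 of 9 were called higher, where 22.4% of all genes tested were. S100a8 was higher by 0.77 without overlap, while Csf3r at -0.21 and Ltf at -0.06 were not called. The sum of the 9 markers was 77996 to 121388 CPM in young and 121157 to 144234 CPM in aged mice. The part of neutrophil RNA in the differences of the inhibitors and of Ctsd was not tested.

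Of 17 tested sorting genes, 7 were called higher and 4 lower, where 22.4% and 23.0% of all genes tested were. Vps29, of the retromer that recycles sorting receptors, rose by 0.62 (SE 0.118, adjusted p = 8.59e-04), and M6pr by 0.29 (SE 0.0855, adjusted p = 0.0124). Igf2r, the large mannose 6-phosphate receptor, was lower at -0.53 (SE 0.115, adjusted p = 0.00196), with no overlap between young mice at 233 to 272 CPM and aged mice at 134 to 232 CPM.

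Other lysosomal hydrolases were higher in part. Of 34 tested, 16 were called higher and none lower by edgeR (0 lower at an unadjusted p under 0.05 and 18 higher), with a median of 0.26. Over all genes tested, 22.4% were called higher and 23.0% lower. Besides the fits without 1 mouse, the count called lower stayed at 0 in 8 of 11 alternatives and was 1 in the rest. Gm2a, the GM2 activator, had the largest rise at 1.03 (SE 0.209, adjusted p = 0.00129), Smpd1, the acid sphingomyelinase, the smallest p (0.54, adjusted p = 7.67e-04), and Gla, at -0.34, was the lowest and was not called (SE 0.176, adjusted p = 0.126). Without young replicates 5 and 6, 8 of the 34 were called higher, where 14.1% of all genes tested were. Of the cathepsins outside the 10 genes, Napsa (napsin A), an aspartic protease like cathepsin D, was higher by 0.73 (SE 0.0999, adjusted p = 8.58e-05), with 71.1 to 107 CPM in young and 132 to 175 CPM in aged mice. Ctse at 0.12 (SE 0.122, adjusted p = 0.426) and Ctso at 0.18 (SE 0.153, adjusted p = 0.343) were not called, and 7 cathepsin genes of the placental cluster were at 0 counts in all mice.

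**Figure D5:**
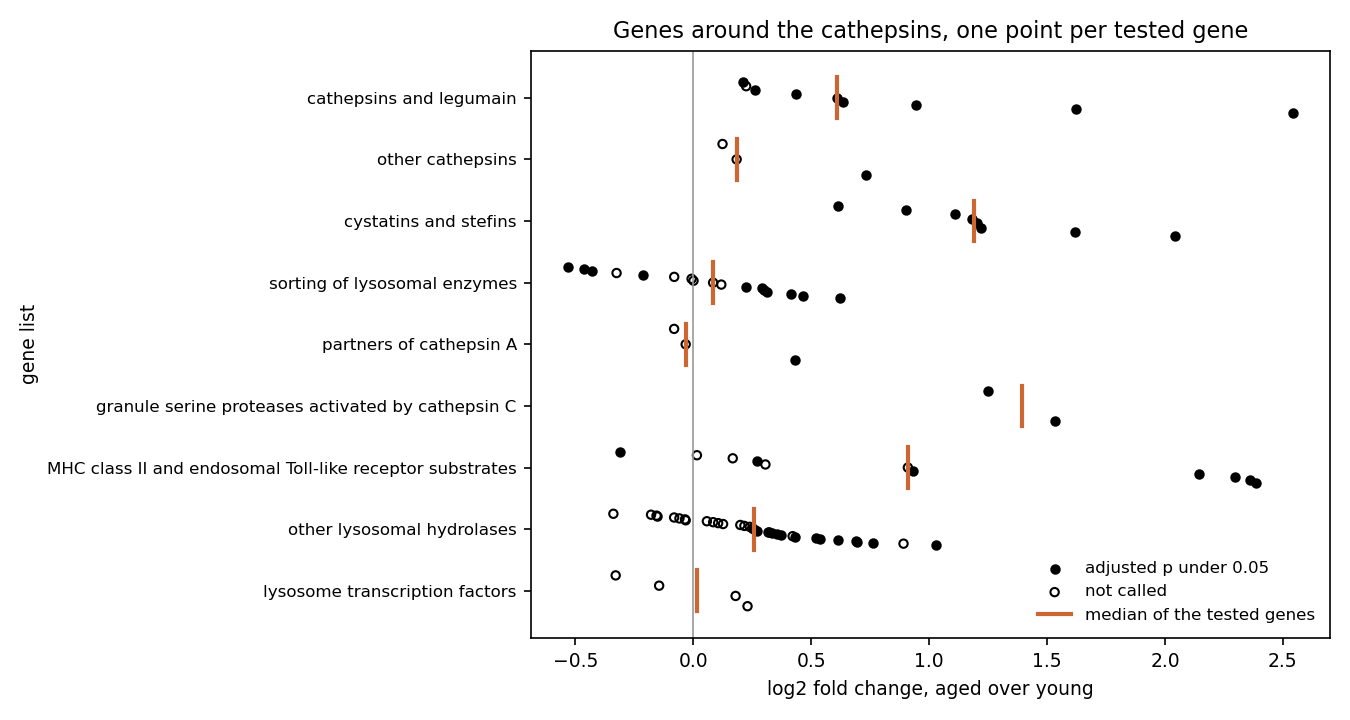
Log2 fold change of aged over young mice (edgeR) for each tested gene of the 9 tested members and of 8 related gene lists, with filled points for an adjusted p under 0.05, open points for genes not called and a line at each list's median. The members (median 0.61) and the cystatins and stefins (median 1.19) lie wholly above 0, and the sorting genes lie on both sides.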

How the data were processed

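Sorted cells of 12 mice, 1 library each, were sequenced (TruSeq stranded, paired ends, NovaSeq). The deposited values are raw counts of fragments per gene, which the authors obtained with featureCounts 2.0.0 on mm10 exons, reverse-stranded, dropping fragments under mapping quality 60, which lowers counts of near-identical genes. Which aligner was run is not given in the sources used here. Groups came from the age labels, and 1 library per mouse was taken as a replicate. No 2 libraries of the same age agreed within sampling noise.

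From the counts, genes were kept with filterByExpr (9742 of 23420), scaled with TMM factors (0.919 to 1.10) and tested with edgeR 4.0.16 in R 4.3.3 (quasi-likelihood, Benjamini-Hochberg over all genes tested, threshold 0.05). SE is the log2 fold change divided by the square root of F. CPM are relative to the TMM-scaled total of the tested genes. The study used DESeq2, taken here (1.42.0) as an alternative beside limma-voom (limma 3.58.1), other scalings and filters, a gene length correction, thinning to 4613239 counts and fits without single mice. The biological coefficient of variation was 15.7%. The test was tried on simulated counts with known differences. Named are all members, and of each related list the gene that rose most, the one that fell most, the one with the smallest p and those not called (if 5 or fewer), every tested macrophage and osteoclast marker, and the 2 genes most like each member (M6pr among them). Cd74, Cstb and the genes of other cell types were named after their values were seen. Members and lists were chosen with earlier results of these data known. The promoters are RefSeq's (GRCm38.p6). The shared replicate numbers come from the labels.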

Additional observations from a re-analysis of the deposited data

Results flagged for a closer look

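Among 24 sets of 6 mice looked at (each member, the member sum and the macrophage sum in each age), 3 had a mouse far from the others by Dixon's criterion, which chance alone meets in about 1 of 20 sets. All 3 were aged replicate 1. It had 79.8 CPM of Lgmn, where the next aged mouse had 25.4 CPM. It had 4.35 CPM of Ctsk, where the next had 0.816 CPM. Its summed macrophage markers reached 1792 CPM, where the next had 885 CPM.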

How the results depend on the processing

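Of 206 refits of member log2 fold changes under the alternatives, 178 kept their direction and side of the threshold, 28 kept the direction and lost the call, and none reversed. The count of members called higher was 8, and 6 to 8 in the 12 fits without 1 mouse (6 without aged replicate 1, aged replicate 2 or young replicate 2). It was 5 with a correction for gene length (17.4% of all genes), which cost Ctsh, Ctsz and Ctss. After seeing the data, 2 fits were added: without aged replicates 1 and 2 together the count was 5 (19.8% of all genes; Ctsh, Ctsz and Ctss lost), and without young replicates 5 and 6 together it was 5 (14.1%; Ctsb, Ctsh and Ctsz lost). It was 6 without TMM factors, where all genes split into 1682 higher and 2762 lower instead of 2185 and 2240. Replicate numbers 1, 2, 5 and 6 are shared by the ages, but mice of the same number did not deviate together (r = -0.14, -0.07, -0.24 and -0.25), so they are not pairs. A fit with the replicate block over these mice called 5 (16.1% of all genes; Ctss, Ctsz and Lgmn lost). The count called lower was 0 throughout. The causes of these losses were not tested, and the fits on fewer mice have less power by construction. Mean levels moved by at most 5.24% without TMM factors. Sample numbers of the alignment files were lower for all young (11 to 16) than for all aged mice (17 to 26), and what these numbers record is not given in the sources used here. Depth limits Ctsk, and Lgmn in young mice.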
